A study of Homo sapiens with 6 samples.

Results

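The ISG15 conjugation system attaches the small ubiquitin-like protein ISG15 to other proteins, and 6 genes were named for it by their role in that chain: ISG15, UBA7, UBE2L6, HERC5, HERC6 and USP18. The list was chosen with earlier results of these data known. Probe sets were then taken by annotation, as those of the array with exactly 1 gene symbol. Of the 6 genes, 5 met this rule, each with 1 probe set, out of 18132 genes measured. USP18 did not, because the annotation gives its probe set 5 gene symbols. The cells were A375, a long-established line from a human melanoma, arrayed as 2 groups of 3 biological replicates with 1 Affymetrix array each. One group had received a short hairpin RNA against UBE2S (spelled UEB2S in some labels) by lentivirus. The other was control A375 cells, and the labels do not say what these received. UBE2S is an E2 enzyme that lengthens ubiquitin chains for the anaphase-promoting complex, the ligase that ends mitosis. The labels do not say whether the knockdown cells were a clone or a pool, nor whether the replicates were separate cultures, so the p-values measure the spread between these arrays.

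ISG15 conjugation follows the steps of ubiquitin transfer. The E1 enzyme UBA7 activates ISG15, the E2 enzyme UBE2L6 carries it, and a ligase, in human cells mainly HERC5, places it on newly made proteins. HERC6 is a close relative of HERC5 and is the main ISG15 ligase in mice. USP18 cuts ISG15 off again and also restrains signalling at the type I interferon receptor. Genes of this system are known as targets of interferon, through the transcription factor complex ISGF3, which binds a DNA element called the interferon-stimulated response element.

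That element can be searched for in sequence, so the promoters of the members were read for it. RefSeq windows of build GRCh38.p14, each running from 250 bases before to 50 bases after an annotated start, existed for 4 of the 6 members, namely ISG15, HERC5, HERC6 and UBE2L6. The core of the element was searched as GAAANNGAAA on both strands, overlapping matches included. ISG15 held 2 matches that overlap each other, with first bases at -113 and -107 from the start. HERC5 held 3 matches on the opposite strand, at -125, -119 and -74, of which the first pair overlap. HERC6 and both windows of UBE2L6 held none. The 250 bases before the start of ISG15 (chr1:1013247-1013496, plus strand), HERC5 (chr4:88456869-88457118, plus strand) and HERC6 (chr4:88378602-88378851, plus strand) are printed here 5′ to 3′. They set promoters with a match to the core beside one without a match, and capitals mark the matches.
ISG15: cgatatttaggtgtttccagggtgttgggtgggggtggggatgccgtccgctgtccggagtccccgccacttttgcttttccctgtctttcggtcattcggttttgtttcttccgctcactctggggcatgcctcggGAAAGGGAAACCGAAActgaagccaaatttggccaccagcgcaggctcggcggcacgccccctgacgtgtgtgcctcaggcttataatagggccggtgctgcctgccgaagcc
HERC5: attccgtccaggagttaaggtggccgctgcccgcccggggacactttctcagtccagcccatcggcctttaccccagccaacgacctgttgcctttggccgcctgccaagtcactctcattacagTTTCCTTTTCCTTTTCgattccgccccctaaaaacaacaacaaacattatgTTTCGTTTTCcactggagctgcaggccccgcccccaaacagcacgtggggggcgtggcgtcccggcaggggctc
HERC6: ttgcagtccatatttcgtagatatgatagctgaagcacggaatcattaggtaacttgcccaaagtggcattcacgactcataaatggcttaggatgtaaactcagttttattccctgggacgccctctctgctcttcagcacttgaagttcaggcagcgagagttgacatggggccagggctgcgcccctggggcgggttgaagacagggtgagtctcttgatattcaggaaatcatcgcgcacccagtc

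Over all genes of the promoter table, 4.38% had the core in a window (1195 of 27305), and over genes measured here the share was 4.15% (599 of 14425). Among genes that rose at least 2-fold in knockdown cells and had a window, the share was 22.4% (17 of 76). The 76 include the members ISG15, HERC5 and HERC6, and the 17 include ISG15 and HERC5. Among genes that fell at least 2-fold the share was 4.41% (3 of 68). Among all genes called as rising it was 4.84% (154 of 3181), close to the share over all measured genes. A second motif, TTCNNNGAA, the core of the element bound after interferon gamma, was in none of the 4 members' windows and in 9.23% of genes measured here. Its share was 17.1% (13 of 76) among genes that rose at least 2-fold, 11.8% (8 of 68) among those that fell at least 2-fold and 10.4% (330 of 3181) among all that rose. A match describes these letters in this window, and binding was not measured.

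The values are on a log2 scale, and each probe set was set to a median of 0 across its 6 arrays. They show differences between arrays and hold no exact level. A coarse class of signal before centring (high, middle or low) was read from their rounding step. The probe set of UBE2L6 was in the high class, and those of ISG15, UBA7, HERC5 and HERC6 were in the middle class. Among melanocytic markers, the probe sets of S100B were all in the high class and those of TYRP1 all in the low class. Neither the order of members within a class nor the presence of melanoma markers can be read from the values. All changes are knockdown minus control on this log2 scale, tested with limma over all genes, and a gene was called when its Benjamini-Hochberg adjusted p was under 0.05. UBE2S fell by 2.09 (SE 0.04, adjusted p = 9.23e-08), and its values of -1.13, -1.05 and -1.01 in the knockdown arrays lay below those of 1.06, 1.01 and 1.01 in the control arrays. The arrays read whole cultures, in which fewer cells with a transcript and less transcript per cell cannot be told apart.

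ISG15, the E2 enzyme and both ligases were higher in knockdown than in control arrays, and the E1 enzyme did not pass the test. Loss of UBE2S and receipt of the hairpin or lentivirus cannot be told apart, because what the control cells received is unknown. Of the 5 genes measured, 4 rose and 0 fell, in the gene fit and in the fit of probe sets alike, and at an unadjusted p under 0.05 the counts were also 4 and 0. Among all genes, 21.4% rose and 18.6% fell in limma. Among all 49293 probe sets 19.5% rose and 17.4% fell. The median change of the 5 genes was 1.07, against -0.0038 over all genes. A rise of at least 2-fold was measured in 3 of the 5 genes, where 0.529% of all genes had one. All 5 had every knockdown array above every control array, as had 26.2% of all genes.

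**Figure D1:**
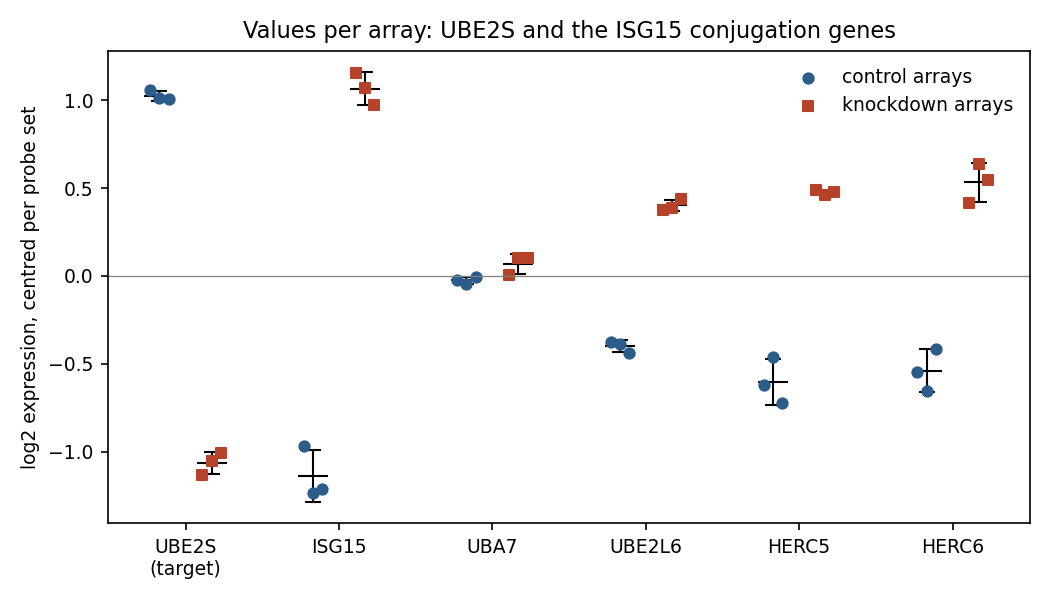
Log2 expression centred per probe set (vertical axis) for UBE2S and the 5 ISG15 conjugation genes, with each array as a point, and the mean and SD of 3 arrays as a line and bars. ISG15 is near -1.14 in control arrays and 1.07 in knockdown arrays, while the UBA7 groups lie 0.008 apart.

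ISG15, the modifier itself, had the largest change of the 5. Its values were 1.16, 1.07 and 0.97 in knockdown arrays 1 to 3 and -0.97, -1.24 and -1.21 in control arrays 1 to 3. The groups were separated by 1.94, while the arrays of 1 group spanned at most 0.265. The means were 1.07 ± 0.09 (SD, n = 3) and -1.14 ± 0.15 (SD, n = 3). The rise of 2.20 (SE 0.08, 95% interval 2.02 to 2.38, adjusted p = 7.33e-07 in limma) is a 4.61-fold higher signal, the fifth largest rise of 18132 genes. Control replicate 1 was the highest control array, and without it the rise was 2.29. The probe set is of the _s_at kind, which the array names as shared between transcripts.

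UBA7, the activating enzyme of the chain, had the smallest change of the 5. It read 0.004, 0.105 and 0.101 in knockdown arrays and -0.025, -0.046 and -0.004 in control arrays. The lowest knockdown array lay 0.008 above the highest control array, so the groups touched without overlapping. The difference of 0.09 (SE 0.04) had a 95% interval from -4.3e-05 to 0.19 and did not pass the test (adjusted p = 0.107 in limma). That interval ends at a 1.14-fold rise. Without knockdown replicate 1, the array nearest to the controls, the difference was 0.13 and was called (adjusted p = 0.0438 in limma). With the arrays centred on the hybridization or poly-A spike-in transcripts the sign turned, to -0.073 and -0.003.

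UBE2L6, the E2 enzyme that hands ISG15 to the ligases, rose with little spread in either group. Its values were 0.38, 0.39 and 0.44 in knockdown arrays and -0.38, -0.39 and -0.44 in control arrays. Each group spanned at most 0.065, and the gap between them was 0.752. The rise was 0.80 (SE 0.04, 95% interval 0.71 to 0.89, adjusted p = 2.48e-06 in limma), a 1.74-fold higher signal and rank 223 among all rises. Its probe set is also of the shared _s_at kind.

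HERC5 and HERC6, the ligases, rose by nearly the same amount. HERC5 read 0.49, 0.46 and 0.48 in knockdown arrays and -0.62, -0.46 and -0.72 in control arrays. Its knockdown arrays lay within 0.026 of each other, while the control arrays spanned 0.261. The rise was 1.08 (SE 0.06, 95% interval 0.93 to 1.23, adjusted p = 7.3e-06 in limma), or 2.12-fold.

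HERC6 read 0.41, 0.64 and 0.55 in knockdown arrays and -0.55, -0.66 and -0.41 in control arrays. Here both groups spread, by 0.223 and 0.243, and the gap between them was 0.826. The rise was 1.07 (SE 0.08, 95% interval 0.90 to 1.25, adjusted p = 1.73e-05 in limma), or 2.10-fold. In rank the ligases were neighbours, at 80 and 81 among all rises. They are also neighbours in the genome, with no other protein-coding gene annotated between them in RefSeq. Only HERC5 had a match to the searched core of the response element in its window.

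**Figure D2:**
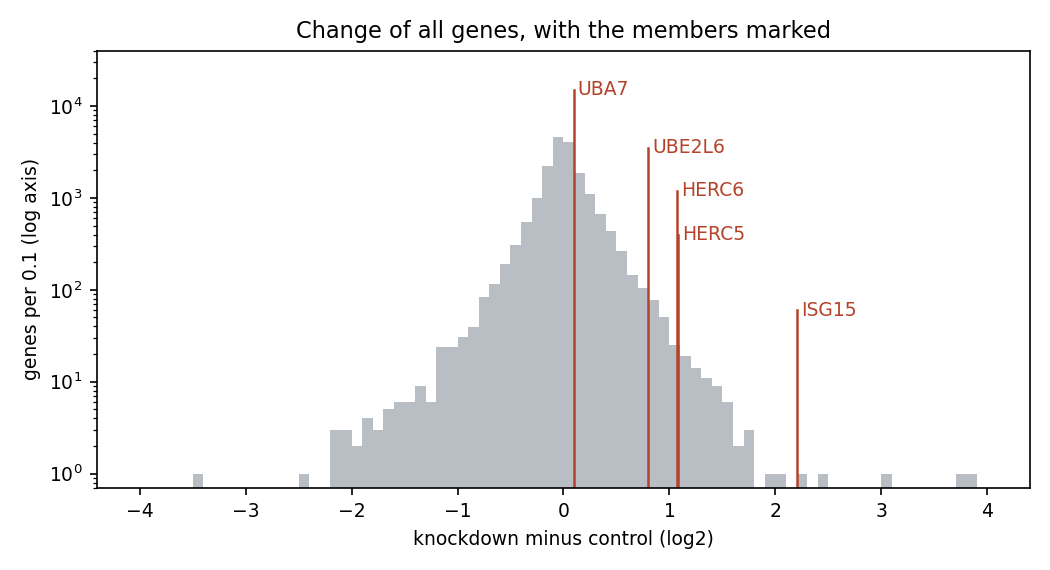
Number of genes (vertical log axis) by change in knockdown minus control on the log2 scale (horizontal axis, bins of 0.1) for 18132 genes, with red lines at the members; the height of a line has no meaning. UBA7 at 0.09 stands within the bulk of genes, UBE2L6 at 0.80 and the ligases near 1.08 at its edge, and ISG15 at 2.20 near the end.

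The members were set against each other within each array, over 10 pairs, by a two-sided exact permutation test of the within-array difference. With 3 arrays against 3 this test cannot go below 0.10. In 9 pairs the groups did not overlap and the exact p was 0.10 (0.111 adjusted over the 10 pairs), so no pair could pass. The rise of ISG15 exceeded that of UBE2L6 by 1.40, or 2.64-fold. It exceeded those of HERC5 and HERC6 by 1.12 and 1.13. The rises of HERC5 and HERC6 exceeded that of UBE2L6 by 0.279 and 0.27, and for HERC6 the arrays nearly met, with UBE2L6 minus HERC6 at most -0.037 in knockdown arrays and at least -0.027 in control arrays. Between HERC5 and HERC6 the difference was 0.009, with overlapping groups (exact p = 0.90). The 95% intervals of ISG15, UBA7 and UBE2L6 do not overlap each other, and those of the ligases overlap each other and lie above that of UBE2L6.

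Some measures of the arrays moved with the groups. Hybridization spike-in transcripts were 0.168 higher and poly-A spike-ins 0.0978 higher in knockdown arrays, and the 3′ minus 5′ difference of the ACTB control probe sets was 0.191 higher without overlap. The same difference for GAPDH was 0.0226 higher, with overlapping groups. Centred on the hybridization spike-ins, which moves the median of all genes to -0.171, ISG15 rose by 2.04, HERC5 by 0.91, HERC6 by 0.90 and UBE2L6 by 0.63, and all 4 passed the test. The part of the ACTB difference in these values was not tested. With the hybridization spike-in centring, 1764 of all 18132 genes rose and 9196 fell, and with the poly-A spike-ins 2486 and 6297. Of 13 blood cell markers measured, CD68, a lysosomal protein of macrophages, rose (0.40, SE 0.04) and 0 fell in limma, and the same counts held at an unadjusted p under 0.05. The 2 probe sets of CD68 gave 0.086 and 0.722. The mean centred value of these markers lay between -0.00047 and 0.035 in knockdown arrays and between -0.057 and -0.0032 in control arrays, without overlap, and their part in the members' rise was not tested. By the hybridization spike-ins, 1 blood cell marker rose and 4 fell. Of 9 melanocytic markers 3 rose and 1 fell, with list means of 0.073 to 0.117 in knockdown and -0.136 to -0.079 in control arrays. S100B rose by 1.09, RAB27A by 1.02 and TYRP1 by 0.22, and MITF fell (-0.72). Of 7 fibroblast and endothelial markers 2 rose and 1 fell, with list means of 0.011 to 0.093 and -0.104 to -0.073. LUM rose by 0.93 and VWF by 0.16, and DCN fell (-0.23). Over all genes 21.4% rose and 18.6% fell. The part of these markers in the members' rise was not tested either. The number of arrays limits the precision.

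Around the members, IRF9, the DNA-binding partner in ISGF3, was the only subunit of that complex analysed here, and it rose by 2.03 (SE 0.07). Its 4 probe sets gave 1.64 to 2.37. In the receptor and feedback list, of 6 genes measured, 2 rose and 0 fell (2 and 0 at an unadjusted p under 0.05), with a median of -0.0022. Over all genes 21.4% rose and 18.6% fell. The receptor kinase JAK1 rose by 0.38 (SE 0.04, 3 probe sets from 0.20 to 0.67). Its partner TYK2 rose by 0.16 (SE 0.04), which became -0.011 once arrays were centred on the hybridization spike-ins. Under that setting 1 gene of the list rose and 3 fell, where 1764 of all 18132 genes rose and 9196 fell.

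Of the interferon ligands themselves, 17 were measured, and in limma 0 rose and 1 fell, with 1 and 2 at an unadjusted p under 0.05. Centred on the hybridization spike-ins 0 rose and 11 fell, and on the poly-A spike-ins 0 and 4. Of all 18132 genes, 9196 fell by the first and 6297 by the second, and without spike-in centring 21.4% rose and 18.6% fell. The gene that fell without spike-in centring was IFNE, the epithelial interferon epsilon (-0.53, SE 0.07). For 14 of the 17, all probe sets were in the low signal class, with at least 1 array below 4 on the log2 scale before centring. Whether these probe sets read above background was not tested. Targets known chiefly for their response to interferon gamma had falls and no rises among them. Of 8 measured, 0 rose and 5 fell in limma, and the counts were also 0 and 5 at an unadjusted p under 0.05, with a median of -0.35. The class II antigen chain HLA-DPA1 fell (-0.81, SE 0.04), as did the chemokine CXCL10 (-0.72, SE 0.07) and HLA-DRA (-0.40, SE 0.04). The 3 probe sets of HLA-DRA ranged from -0.608 to -0.050. Centred on the hybridization spike-ins all 8 fell, and on the poly-A spike-ins 6, where 9196 and 6297 of all 18132 genes fell. Without spike-in centring IDO1, CXCL9 and GBP5 were not called (0.0036, -0.054 and -0.065). All probe sets of CXCL9 and GBP5 were in the low signal class, and whether they read above background was not tested.

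Proteins reported to carry ISG15 were followed at the level of their transcripts. Of 18 measured, 14 rose and 3 fell, with a median of 0.34, where 21.4% of all genes rose and 18.6% fell. Several of these are interferon targets in their own right. The antiviral proteins IFIT1 and MX1 rose by 3.89 (SE 0.10) and 3.77 (SE 0.06), and the RNA sensor RIGI by 1.79 (SE 0.05). Those that fell were the E2 enzyme UBE2N (-0.71, SE 0.04), the replication clamp PCNA (-0.40, SE 0.05) and the cap-binding protein EIF4E2 (-0.28, SE 0.06). Centred on the hybridization spike-ins, 10 rose and 3 fell, and on the poly-A spike-ins 13 and 3. Of all 18132 genes, 1764 rose and 9196 fell by the first and 2486 and 6297 by the second. Conjugates on these proteins were not measured.

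Other enzymes reported to add or remove ISG15, together with SKP2, a ligase subunit that targets USP18, did not rise with the members. Of 9 measured, 0 rose and 4 fell, also at an unadjusted p under 0.05, with a median of -0.063. Over all genes 18.6% fell. The 9 include USP41P, which RefSeq annotates as a pseudogene. SKP2 fell (-0.42, SE 0.04), as did the proteasome-bound protease USP14 (-0.31, SE 0.04) and the ligase ARIH1 (-0.17, SE 0.04). For ARIH1 the 3 probe sets ranged from -0.50 to 0.11, and those of USP14 from -0.52 to 0.0284. The protease USP13 was called at the threshold (-0.12, SE 0.04, adjusted p = 0.05 as rounded, in limma). Its 3 probe sets ranged from -0.28 to 0.07. Centred on either kind of spike-in, 0 genes of the list rose and 6 fell. Of all 18132 genes, 9196 fell by the hybridization and 6297 by the poly-A spike-ins. The other HERC proteins measured are outside the ISG15 system. HERC1 and HERC2 rose by 0.24 and 0.20 (SE 0.05 and 0.04), HERC4 stood at 0.035, and centred on the hybridization spike-ins none of the 3 rose and 1 fell. For HERC2 the probe sets gave -0.085 and 0.48.

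Related systems held both rises and falls, in shares that moved with the centring. Over all 18132 genes 21.4% rose and 18.6% fell. Of these genes 1764 rose and 9196 fell by the hybridization spike-ins, and 2486 and 6297 by the poly-A spike-ins. Among 7 E1-like enzymes of other modifiers, 1 rose and 2 fell, with a median of -0.050. Centred on the hybridization spike-ins 0 rose and 5 fell, and on the poly-A spike-ins 0 and 4. NAE1, of the NEDD8 pathway, rose by 0.17 (SE 0.04), and by the hybridization spike-ins its change was -0.00052. MOCS3, which activates URM1, fell (-0.21, SE 0.03), as did the autophagy E1 enzyme ATG7 (-0.17, SE 0.05), whose probe sets ranged from -0.291 to 0.067. Among 15 other ubiquitin-like modifiers, 5 rose and 3 fell, with a median of -0.0097. GABARAP rose by 0.59 (SE 0.04), GABARAPL1 by 0.42 and GABARAPL2 by 0.25, all of them autophagosome coat proteins. The probe sets of GABARAP ranged from 0.049 to 1.01 and those of GABARAPL1 from 0.066 to 0.617. URM1, a modifier that also carries sulphur to transfer RNA, fell (-0.58, SE 0.04), as did the membrane-bound UBL3 (-0.26) and the autophagy modifier ATG12 (-0.13). Probe sets differed in sign for both, from -0.849 to 0.068 for UBL3 and from -0.324 to 0.062 for ATG12. Centred on the hybridization spike-ins, 2 of the modifiers rose and 9 fell, and on the poly-A spike-ins 4 and 6. UBB, the only ubiquitin gene analysed here, rose by 0.29 (SE 0.04). By the hybridization spike-ins it rose by 0.13 (adjusted p = 0.0482 in limma) and by the poly-A spike-ins by 0.20 (adjusted p = 0.00473 in limma).

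**Figure D3:**
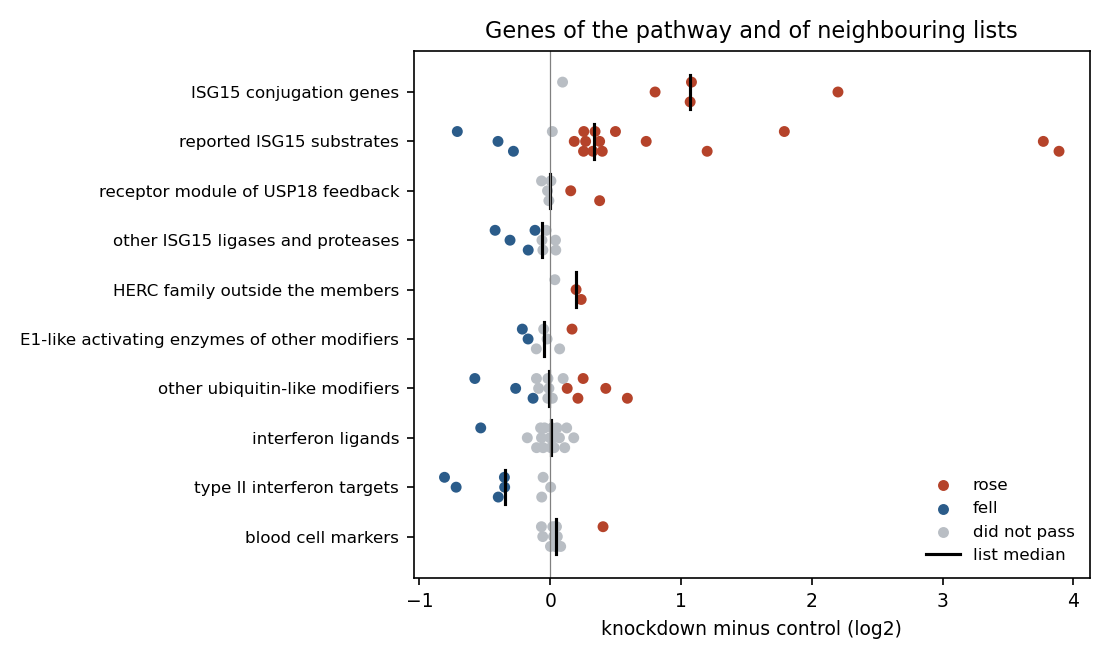
Change in knockdown minus control on the log2 scale (horizontal axis) for the measured genes of 10 lists, with each gene as a point coloured by its limma call and the list median as a black line. The ISG15 conjugation genes have a median of 1.07, reported ISG15 substrates 0.34 and interferon ligands 0.0056.

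The nearest protein-coding genes on either side of the members, 2 per side in RefSeq order, were read as a look at position. Of 16 such genes that are not members, 13 were measured, of which 3 rose, 1 fell and 9 did not pass, a share of rises near the 21.4% of all genes. PPM1K, a mitochondrial phosphatase gene next to HERC6, read 0.21, 0.39 and 0.44 in knockdown arrays and -0.30, -0.23 and -0.34 in control arrays, without overlap. It rose by 0.64 (SE 0.06), and its 3 probe sets ranged from 0.07 to 1.62. YPEL4, 2 genes from UBE2L6, rose by 0.98 (SE 0.10), while SERPING1 between them was not called (0.036, SE 0.05). AGRN, next to ISG15, rose by 0.15 (SE 0.04), but its 2 probe sets gave -0.143 and 0.437 and its change was -0.020 by the hybridization spike-ins. HES4, on the other side of ISG15, was not called (0.071, SE 0.07).

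The genes whose values were closest to those of ISG15 over the 6 arrays, by root mean square difference, were IFITM1 (0.169), TAC1 (0.199), IRF9 (0.207), ITGA7 (0.240) and RIGI (0.247). Their correlation with ISG15 lay between 0.985 and 0.997 over 6 arrays that fall into 2 groups, so it is mostly set by the difference between the groups. IFITM1, a membrane protein that blocks virus entry, rose by 2.45, and TAC1, the precursor of substance P, by 1.94.

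**Figure D4:**
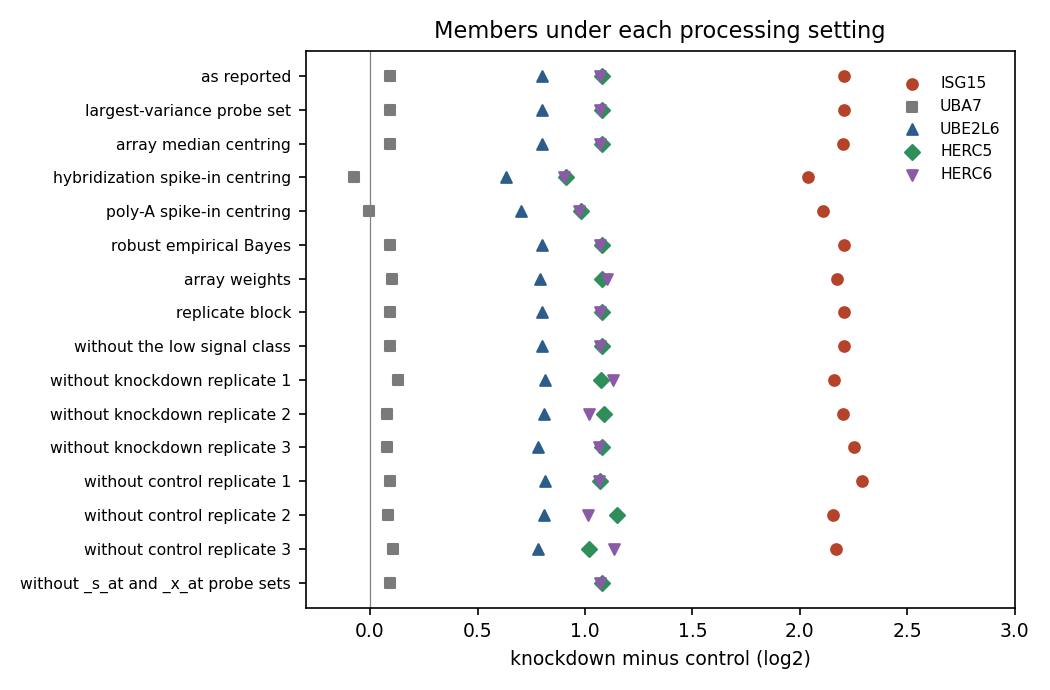
Change of each member in knockdown minus control on the log2 scale (horizontal axis) under each processing setting (rows), with 1 symbol per gene. ISG15 stays between 2.04 and 2.29, UBE2L6 between 0.63 and 0.81, and UBA7 crosses 0 under the spike-in centrings; ISG15 and UBE2L6 have no value in the last row, where their only probe set is removed.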

How the data were processed

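The authors deposited log2 values per probe set for 6 arrays. The tools used, per the submitters' processing notes, include affy, RMA and limma, without versions or roles; the base of the logarithm follows from RMA's output. Every probe set has a median of 0 over the arrays (at most 4.85e-07 from it). Of 49395 probe sets, 102 are array controls and were left out. As for the genome build, it was not given in the sources used here. Annotation gave 1 symbol for 44988, several for 1832 and none for 2473, and 44961 matched RefSeq (GRCh38.p14) by gene number.

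A gene's value was the mean of its probe sets with that 1 symbol, without a filter. Knockdown and control were compared in R 4.3.3 with limma 3.58.1 (lmFit, eBayes) over all genes and over all probe sets, with no block, Benjamini-Hochberg adjustment and two-sided tests; the fit was tested on simulated data. Signal classes were read from the rounding step of the values (high, 8 to 16 before centring, middle, from 4, and low, with at least 1 array below 4). The 10 pair tests replace the 15 planned for 6 genes.

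Named genes are UBE2S, the members, up to 3 called genes per direction in each pathway list and the 5 nearest to ISG15. CD68 and other genes of the marker lists, USP13, HERC4, USP41P and the genes chosen by position fall outside this rule. They were added with values in view. Members and lists were chosen with earlier results of these data known. The alternatives are given in the closing section. Arrays of 1 group differed with an SD of 0.125 to 0.144, and none was a copy. Some listed genes are not analysed here.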

Additional observations from a re-analysis of the deposited data

Results flagged for a closer look

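The probe set that includes USP18 lies outside the comparison because the annotation gives it 5 symbols, the others being FAM247A, FAM247C, FAM247D and LOC105379548, so its signal cannot be assigned to 1 gene. It drew attention because its values in knockdown arrays, 0.387, 0.505 and 0.464, lay above those in control arrays, -0.387, -0.413 and -0.450, with a difference of 0.869 (SE 0.05, adjusted p = 1.01e-05 in limma over all probe sets). USP41P, annotated in RefSeq as a pseudogene, has a probe set of its own, which gave -0.031 (SE 0.09, adjusted p = 0.824).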

How the results depend on the processing

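ISG15, UBE2L6, HERC5, HERC6 and UBE2S kept their direction and their call under every alternative run for them (the probe set of largest variance per gene, array median and spike-in centring, robust empirical Bayes, array weights, no low signal class, no shared probe sets, each array left out, the block). Each has 1 probe set, so the settings that select probe sets could not move its change. Robust empirical Bayes and the block alter only the SE and p of a change. The setting without shared probe sets was run for HERC5 and HERC6, and not for ISG15, UBE2L6 or UBE2S. UBA7 was reversed to -0.073 with hybridization spike-in centring (adjusted p = 0.210) and to -0.003 with poly-A spike-in centring (adjusted p = 0.958). Leaving out each array in turn gave 2.16 to 2.29 for ISG15, 0.782 to 0.815 for UBE2L6, 1.02 to 1.15 for HERC5, 1.01 to 1.14 for HERC6, 0.077 to 0.128 for UBA7 and 4 to 5 member genes that rose, UBA7 being the fifth without knockdown replicate 1 (0.128, adjusted p = 0.0438). Without probe sets ending in _s_at or _x_at, 2 members rose, because ISG15 and UBE2L6 lose their only probe set. Over all genes, rises and falls numbered 1764 and 9196 with hybridization and 2486 and 6297 with poly-A spike-in centring, against 3888 and 3378. The replicate numbers did not pair the arrays (correlations of same-numbered deviations between -0.105 and -0.0165), and with the replicate number as a block UBA7 stood at 0.095 (adjusted p = 0.159), ISG15 rose by 2.20, and no member's call changed. Each member rests on 1 probe set, and signal over background is unknown.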
